A study of Mus musculus with 2 samples.

Results

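Mitosis and spindle genes are the genes whose products condense and segregate chromosomes, build the spindle and split the cell. A list of 52 of them was followed through single-cell RNA sequencing of developing mouse retinal endothelium. The members were named by function, without a threshold on measured values, but with earlier results of these data known. All 52 had a row in both libraries, out of 19813 gene symbols with a row in both. The list was sorted by role into 10 groups, from cyclins to cytokinesis.

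The cells came from the retinas of wild-type C57BL/6 mice at postnatal day (P)6 and P15, with no transgene or treatment in either group. Endothelial cells were sorted by FACS as positive for CD31, an endothelial surface protein, and negative for CD45, a blood cell surface protein, and each age was sequenced as 1 droplet library of the 10x Genomics type. How many animals were pooled for each library was not given in the sources used here. The comparison by age asks how far these genes differ between a retinal vasculature that is still growing and one that is more mature, and the comparison by cluster asks in which kinds of endothelial cell they are found.

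Droplet sequencing tags every captured mRNA with a random barcode, the unique molecular identifier (UMI), and counts amplified copies of it as 1. The P6 library held 13958124 UMIs in 1984 barcodes and the P15 library 11589641 UMIs in 2141 barcodes. After the exclusion criteria that the study states, 1424 P6 cells (median 4986 UMIs) and 1644 P15 cells (median 4214 UMIs) were left. Published cluster names covered 1560 P6 cells, and the copy of the names used here covered 438 P15 cells. Of these labelled cells, 1399 at P6 and 409 at P15 met the criteria, so the study kept some cells that the criteria as applied here drop. The main comparison by age used cells that met the criteria, and comparisons by cluster used all labelled cells. The libraries shared 7 barcode sequences, and 25 P6 and 24 P15 barcodes held both *Xist* and Y-linked UMIs. Ribosomal protein genes took 19.2% of the UMIs at P6 and 11% at P15. With 1 library per age there were no replicates, so no test across samples was possible. Levels are given as CPM, the UMIs of a gene or list in every 1000000 UMIs of the same cells. Intervals of levels and of their ratios are at 95%. They cover counting error only and not the spread between animals or between cells.

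Entry into mitosis is driven by cyclins bound to the kinase encoded by *Cdk1*, and exit from it by the anaphase-promoting complex, which *Cdc20* activates and for which *Ube2c* supplies ubiquitin. Most mitotic genes are transcribed late in the cell cycle, whereas the genes for DNA replication are transcribed before and during S phase. Repression of mitotic genes in resting cells acts through a short promoter element close to the transcript start, the cell cycle homology region, often with CCAAT boxes before it. In the retina, endothelial division is high while the vessel network spreads and low once the vessels have matured.

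The promoters of several members are shown because that element was the sequence feature, of those searched, whose share among members stood furthest from its share among all windows of the same length. Letters were read from RefSeq promoter windows of GRCm38.p6, which run from 250 bases before to 50 bases after each transcript start, and only bases before the start are printed. The first 4 sequences below hold TTTGAA or its reverse complement TTCAAA within 30 bases of the start, and the last does not. Each is written 5′ to 3′ on the gene's strand from 100 bases before the start to the base just before it. Capitals mark TTTGAA and CCAAT, or their reverse complements TTCAAA and ATTGG. The *Cdc20* bases lie on the minus strand at chr4:118437344-118437443, the *Top2a* bases on the minus strand at chr11:99024190-99024289 and the *Ckap2l* bases on the minus strand at chr2:129297213-129297312. The *Depdc1a* bases lie on the plus strand at chr3:159495333-159495432 and the *Cks2* bases on the plus strand at chr13:51645132-51645231.
Cdc20: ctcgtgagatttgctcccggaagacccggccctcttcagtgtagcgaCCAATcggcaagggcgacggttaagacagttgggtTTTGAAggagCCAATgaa
Top2a: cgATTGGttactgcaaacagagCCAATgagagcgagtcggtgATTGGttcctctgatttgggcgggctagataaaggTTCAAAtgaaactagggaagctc
Depdc1a: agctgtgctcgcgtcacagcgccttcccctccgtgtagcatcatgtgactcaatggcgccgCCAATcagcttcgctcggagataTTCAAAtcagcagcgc
Ckap2l: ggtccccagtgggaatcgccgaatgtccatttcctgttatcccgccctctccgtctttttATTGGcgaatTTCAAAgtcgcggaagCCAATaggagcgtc
Cks2: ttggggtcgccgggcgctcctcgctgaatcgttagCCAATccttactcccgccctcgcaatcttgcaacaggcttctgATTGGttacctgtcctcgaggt

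TTTGAA was present on either strand in 37 of 48 promoter windows of the 45 members that matched (77.1%). It was present in 17.9% of all 32851 windows of the same length, in 44.1% of 68 windows of other mitosis genes and in 9.38% of 32 windows of S phase genes. Within 50 bases on either side of the start, a window chosen after the data were seen, the motif was in 70.8% of member windows and in 4.94% of all windows. In the last 150 bases before the start it was in 37.5% of member windows and 9.07% of all windows. In *Cdc20* the first base of TTTGAA was 18 bases before the start, with CCAAT at 53 and again at 8 bases before it. In *Top2a*, TTCAAA began 23 bases before the start, in *Depdc1a* 16 bases before it and in *Ckap2l* 30 bases before it. *Bub1* and *Psrc1* held the related TTCGAA and no TTTGAA. Neither form was found for 8 members, namely *Ccnb1*, *Cks2*, *Birc5*, *Cenpe*, *Nuf2*, *Nusap1*, *Tacc3* and *Sapcd2*. CCAAT was present in 79.2% of member windows and 37.4% of all windows. Any of the E2F-like letters TTTGGCGC, TTTCCCGC, TTTCGCGC or TTTGCCGC was present in 2.08% of member windows, in 37.5% of S phase windows and in 2.26% of all windows. Every motif was searched on both strands, and matches of TTTGAA and CCAAT may overlap, as in *Cenpw*, where they share 1 base. A match of letters is a description and was not tested as a binding site. *Ccna2*, *Aurkb*, *Kif20a*, *Tpx2*, *Dlgap5*, *Smc4* and *Pif1* were not matched.

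**Figure D1:**
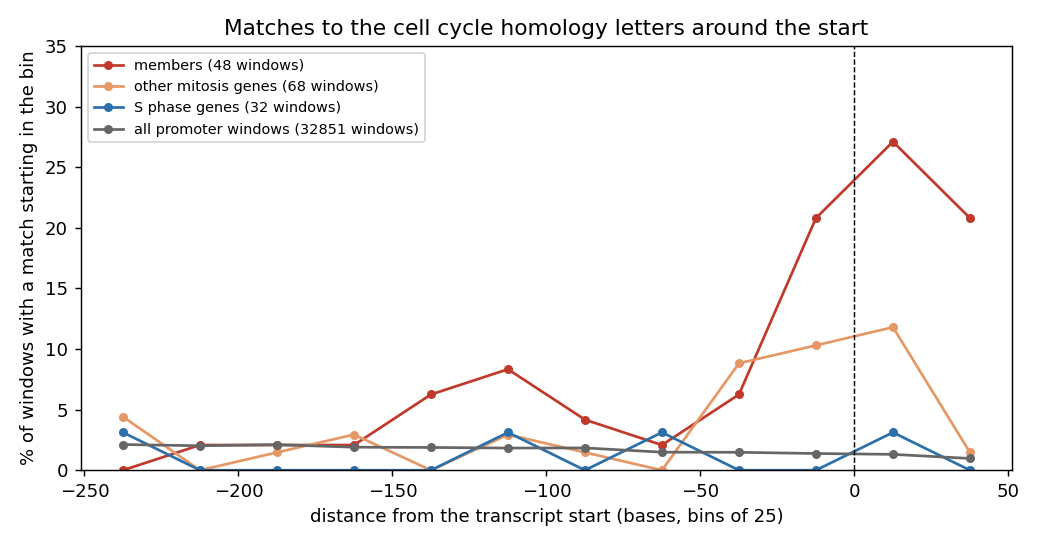
Share of promoter windows in which TTTGAA, on either strand, begins in each bin of 25 bases (y axis, %), against distance from the transcript start (x axis, bases), for members, other mitosis genes, S phase genes and all windows. The line of the members reaches 20.8% in the last bin before the start and 27.1% in the first bin after it, while the line of all windows stays near the bottom of the plot throughout.

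All 52 members were higher at P6 than at P15, by intervals that lay above 1. Among cells that passed the criteria, the 52 members summed to 2346 CPM at P6 (interval 2312 to 2381) and 416 at P15 (401 to 431), a ratio of 5.65 (5.43 to 5.87). At least 2-fold higher values at P6 were found for 50 of 52 members, where 7.05% of 12929 genes with at least 20 UMIs were at least 2-fold higher. No member was at least 2-fold lower at P6, where 9.41% of genes were. The median ratio of P6 to P15 was 7.02 for the members and 0.916 for all genes. The plot of members by age has the P15 point below the P6 point for each of the 52 genes.

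**Figure D2:**
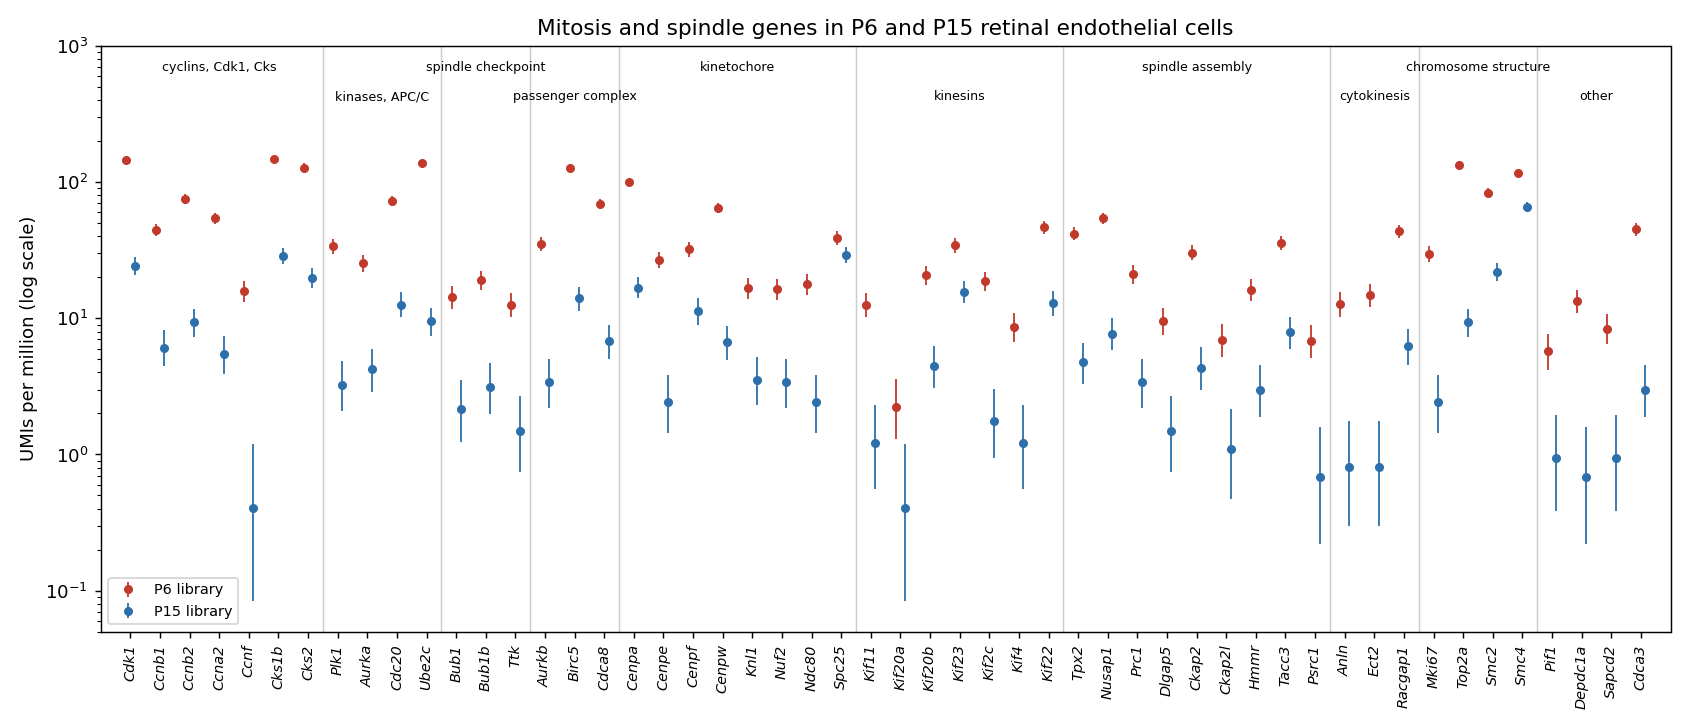
CPM (y axis, log scale) of each member gene (x axis, grouped by role) in P6 and P15 cells that passed the criteria, with bars for 95% Poisson intervals and 1 library per age. P6 lies above P15 for all 52 members, by 1.32-fold for *Spc25* and by 38.9-fold for *Ccnf*, which had 3 UMIs at P15.

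Cyclins, *Cdk1* and its Cks partners summed to 611 CPM at P6 and 94.1 at P15, a ratio of 6.49. *Cdk1*, the catalytic subunit, had 146 CPM at P6 (137 to 154) and 24.1 at P15 (20.7 to 28.0). The B-type cyclin genes had 44.5 and 6.10 (*Ccnb1*) and 74.8 and 9.36 (*Ccnb2*). *Ccna2*, the cyclin that acts from S phase to early mitosis, had 54.3 and 5.43. All of these differ by more than their counting intervals. *Cks1b* and *Cks2*, small proteins that bind the *Cdk1* complex, had ratios of 5.11 (4.41 to 5.94) and 6.48 (5.44 to 7.77), and as close paralogs they may share reads. *Ccnf*, a cyclin that marks proteins for degradation, went from 121 UMIs at P6 to 3 at P15, a ratio of 38.9 with the wide interval of 13 to 191.

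Mitotic kinases and the anaphase-promoting complex had a summed ratio of 9.13 (7.94 to 10.6). *Plk1*, a kinase needed from mitotic entry to cytokinesis, had 33.7 CPM at P6 (29.7 to 38.1) and 3.26 at P15 (2.09 to 4.84). *Aurka*, the kinase of the spindle poles, had 25.4 and 4.21. *Ube2c* had 139 (131 to 147) and 9.50 (7.40 to 12), a ratio of 14.6, and was the member of this group with the highest ratio (6.92 with labelled cells only). *Cdc20* had the lowest, with 72.3 (66.4 to 78.6) and 12.6 (10.2 to 15.5), a ratio of 5.73. Exons of *Cdc20* and *Ube2c* overlap those of *Elovl1* and *Tnnc2*, and the strand used in counting was not given in the sources used here, so reads of these pairs may be mixed. The same holds for *Ccna2* with *Exosc9*, *Nusap1* with *Oip5*, *Prc1* with *Rccd1*, *Tacc3* with *Tmem129*, *Kif4* with *Pdzd11*, *Kif20a* with *Cdc23* and *Cdca8* with *9930104L06Rik*.

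The spindle checkpoint delays anaphase until every chromosome is attached. Its members *Bub1*, *Bub1b* and *Ttk* summed to 46.0 CPM at P6 and 6.78 at P15. *Bub1b* had 19.1 (16.1 to 22.4) and 3.12 (1.98 to 4.68), and *Ttk*, with the highest ratio of the group, had 12.6 and 1.49. The chromosomal passenger complex corrects faulty attachments and later marks the site of division. Its kinase *Aurkb* had 35.3 CPM at P6 (31.2 to 39.8) and 3.39 at P15 (2.19 to 5.01), a ratio of 10.4. *Birc5*, which encodes survivin, had 128 (119.7 to 136) and 14.0 (11.4 to 16.9), a ratio of 9.13. The 3 ratios of this complex lay close together, between 9.13 and 10.4.

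Genes of the centromere and kinetochore, where microtubules attach, ranged widely, with ratios from 1.32 to 11. *Cenpe*, a kinesin that brings chromosomes to the spindle equator, had 26.8 CPM at P6 (23.3 to 30.7) and 2.44 at P15 (1.45 to 3.86). *Cenpa*, the histone H3 variant of centromeres, had 100.3 and 16.8, and *Cenpw*, a protein of the inner kinetochore, had 64.5 and 6.65. *Cenpf*, a large protein of the outer kinetochore, had 32.3 (28.4 to 36.6) and 11.3 (8.97 to 14.0), a ratio of 2.87. *Spc25*, a subunit of the *Ndc80* complex, had 38.7 (34.4 to 43.4) and 29.3 (25.5 to 33.5), the smallest ratio of all members at 1.32 (1.10 to 1.58). Its partners in the same complex had ratios of 4.82 (*Nuf2*) and 7.28 (*Ndc80*), with intervals that do not overlap that of *Spc25*.

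Kinesins, the motors that slide and carry microtubules, had a summed ratio of 3.81 (3.34 to 4.36). *Kif2c*, which shortens microtubules at centromeres, had the highest ratio of 10.6. *Kif11*, the motor that separates the spindle poles, had 12.6 CPM at P6 (10.2 to 15.3) and 1.22 at P15 (0.558 to 2.32). *Kif23*, a motor of the central spindle, had 34.4 and 15.7, the lowest ratio of the group at 2.19 (1.75 to 2.74). The genes for spindle assembly and microtubule binding ranged from 4.54 (*Tacc3*) to 10.0 (*Psrc1*). *Tpx2*, which activates the *Aurka* kinase on microtubules, had 41.7 and 4.75, and *Nusap1*, which bundles spindle microtubules, had 54.3 and 7.73. *Prc1*, which crosslinks the central spindle, had 21.2 and 3.39, and *Hmmr*, a spindle protein that also binds hyaluronan, had 16.2 and 2.98.

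Cytokinesis genes summed to 71.3 CPM at P6 and 7.87 at P15, a ratio of 9.06. *Ect2* and *Racgap1* act on the GTPase that closes the division ring, and *Anln* scaffolds the ring. Their ratios were 18.2 (8.08 to 50.5) for *Ect2*, 15.6 (6.90 to 43.5) for *Anln* and 7.02 (5.15 to 9.77) for *Racgap1*. *Ect2* and *Anln* each had 6 UMIs at P15, so their intervals are wide.

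Genes of chromosome structure split by ratio. *Top2a*, which untangles sister DNA, had 134 CPM at P6 (126 to 143) and 9.36 at P15 (7.28 to 11.8), a ratio of 14.3. *Mki67*, which coats mitotic chromosomes and is a common marker of cycling cells, had 29.7 (25.9 to 33.8) and 2.44 (1.45 to 3.86), a ratio of 12.2. With labelled cells only, the ratio was 7.41 for *Top2a* and 5.67 for *Mki67*, and after thinning it was 21.7 for *Mki67*. The condensin subunits that compact chromosomes had far smaller ratios, with 83.7 and 22.0 for *Smc2* (3.81) and 117 and 65.8 for *Smc4* (1.78, interval 1.59 to 1.99). Of the remaining members, *Pif1*, a DNA helicase, had 5.75 (4.18 to 7.72) and 0.950 (0.382 to 1.96), *Depdc1a* had the highest ratio of 19.7 with 5 UMIs at P15, and *Cdca3* and *Sapcd2* had ratios of 15.1 and 8.81.

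The number of members found in the same cell was counted. It was not set against the number that unlinked members at the same levels would give. To compare cells of unequal depth, each cell with at least 3000 UMIs was thinned to 3000 UMIs, which left 1245 P6 and 1163 P15 cells. A median of 2 members was found per P6 cell and 1 per P15 cell. At least 5 members were found in 341 P6 cells (27.4%, exact binomial interval 24.9% to 30.0%) and in 21 P15 cells (1.81%, 1.12% to 2.75%). This count is a range along a continuum and not a cell type. At P6, 139 cells lay just under the limit with 3 or 4 members and 54 just over it with 5 or 6, whereas at P15 these were 33 and 3 cells. At least 10 members were found in 233 P6 cells and in 16 of the 21 P15 cells. In unthinned cells the shares were 33.3% and 2.43%. Barcodes with a UMI of *Neurod1*, a gene of retinal neurons that endothelial cells should lack, had been excluded and were counted the same way. At least 5 members were found in 15 of 77 such P6 barcodes (19.5%, exact binomial interval 11.3% to 30.1%, median 5568 UMIs over 98 barcodes). At P15 they were found in 0 of 12 (upper bound 26.5%, median 6379 UMIs over 17 barcodes). The P6 share in these barcodes is thus not near 0, and its interval overlaps that of the P6 endothelial cells. The 98 P6 barcodes also held 2712 CPM of endothelial marker genes and 543 CPM of markers of retinal progenitors and Müller glia. They are therefore not a clean negative control, and their share gives no background level for the endothelial cells.

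All 341 P6 cells and all 21 P15 cells with at least 5 members held a UMI of the endothelial genes *Pecam1*, *Cdh5* or *Cldn5*. The 8 endothelial markers summed to 5963 CPM in the P6 cells with at least 5 members and 8885 in those with fewer, and to 9189.8 and 13227 at P15. The 8 pericyte markers were at 21.4 and 10.2 at P6 and at 91.6 and 300.3 at P15, and the 8 neuron markers at 9.51 and 11.8 at P6 and at 58.3 and 45.2 at P15. Of 8 markers of retinal progenitors and Müller glia, 2 were found in the P6 cells with at least 5 members, at 117 CPM against 457 in those with fewer, and at 575 and 1253 at P15. Astrocyte and microglia markers were at or below 5.95 in each of these sets, and erythroid markers at 20.4 and 23.2 at P6 and at 167 and 166 at P15. Of the 341 cells, 2 held both *Xist* and Y-linked UMIs, and of the 21 cells none did. The part of doublets and of other cell types in these counts was not tested.

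**Figure D3:**
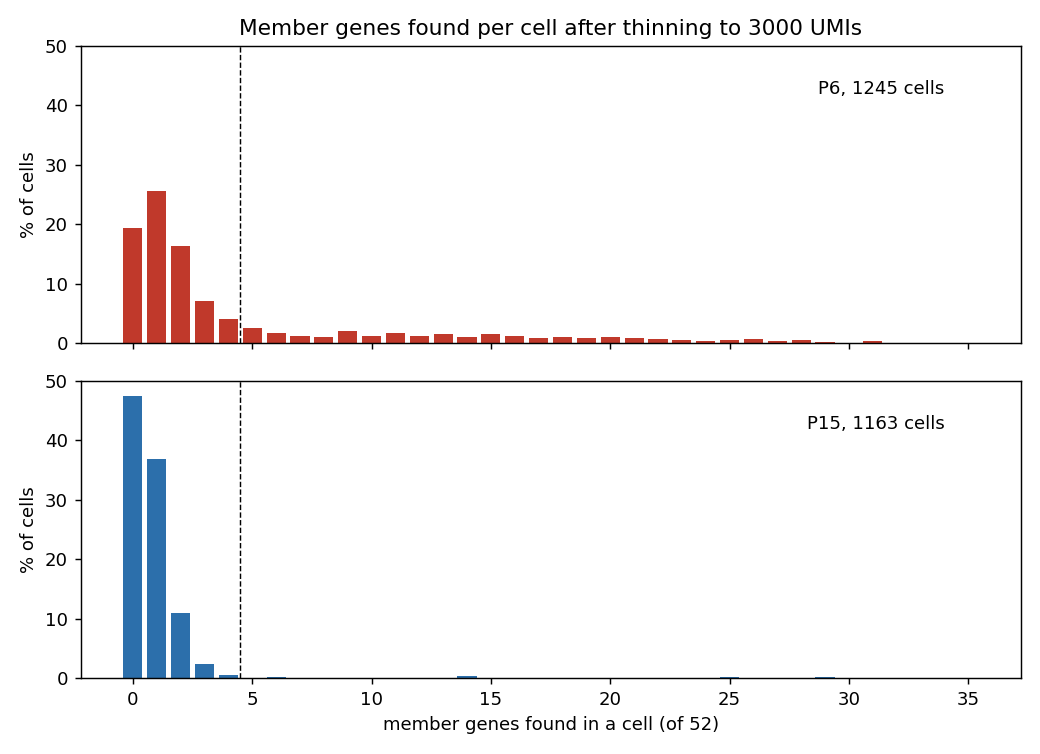
Percent of cells (y axis) by the number of the 52 members found in a cell after thinning to 3000 UMIs (x axis), for 1245 P6 and 1163 P15 cells, with a dashed line before 5 members. No member was found in 19.4% of P6 cells and 47.5% of P15 cells, and the P6 distribution has cells at every number from 0 to 31 and 1 cell at 33, while 21 P15 cells lie to the right of the line.

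At P6, 84.9% of the member UMIs of cells with at least 3000 UMIs lay in the cells with at least 5 members, and at P15 43.8% did. These were 341 of 1245 P6 and 21 of 1163 P15 cells. They were chosen by the members themselves, so a high share is in part built in. Their share of all UMIs was not computed. For each member, the share of its UMIs (cells with at least 3000 UMIs) that lay in cells with at least 5 other members was at P6 between 56.5% (*Smc4*) and 98.0% (*Depdc1a*), with a median of 89.8%. At P15 the median over members was 72.6%, from fewer UMIs, and the 5 members with the most P15 UMIs there (*Smc4*, *Spc25*, *Cks1b*, *Cdk1* and *Smc2*) had shares under 30%. *Mki67* was at 87.8% and 93.3%, and *Ube2c* at 93.9% and 91.0%. Some members had under 30% of their P15 UMIs in such cells. Only 9.18% of the 196 P15 UMIs of *Spc25* in these cells and 9.43% of the 435 P15 UMIs of *Smc4* lay in them, against 77.4% and 56.5% at P6. *Smc2* (19%), *Cks1b* (20.5%), *Kif23* (22.9%), *Kif22* (24.4%), *Cenpw* (27.5%) and *Cdk1* (28.9%) were also low at P15, and *Kif20a* had 0 of 2 UMIs there. P15 shares from 33.3% to 46.9% were found for *Ccnf*, *Ndc80*, *Bub1b*, *Prc1*, *Cenpf*, *Tacc3* and *Cks2*. As the share of all UMIs in such cells was not computed, a low share does not show that a member is unlinked to them.

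Outside the cells with at least 5 other members, 29 members still had an interval of the P6 to P15 ratio above 1, 3 had one below 1 and 20 had one that included 1. Among all 19137 genes with a UMI in cells with under 5 members, 11.6% had an interval above 1 and 18.9% below 1. The 3 that were higher at P15 were *Spc25* with 12.7 CPM at P6 and 28.6 at P15 (0.443, 0.328 to 0.592), *Kif23* with 7.05 and 13 (0.541, 0.355 to 0.810) and *Cenpf* with 1.96 and 6.92 (0.284, 0.127 to 0.574). *Smc4* was at 70.5 and 63.4, a ratio of 1.11 (0.962 to 1.29). *Top2a* (23.8 and 1.93) and *Ccnb2* (24.1 and 2.25) were higher at P6 even there. Over all P15 cells that passed the criteria, the 83 UMIs of *Cenpf* lay in only 35 cells. The 216 of *Spc25* lay in 167 cells and the 116 of *Kif23* in 103. The intervals leave out this spread between cells. Within the cells with at least 5 members the order of the ages turned, with a member sum of 7023 CPM at P6 and 10106 at P15, a ratio of 0.695 (0.655 to 0.737). These cells were chosen by the members themselves, 21 cells stand for P15, and the interval leaves out the spread between cells. The median ratio of single members there was 0.715.

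Among the named P6 clusters, the members were highest in the Proliferative cluster, which the study had drawn from gene expression in these same cells, so that the values describe the cluster and test nothing. The 198 Proliferative cells had 8595 CPM (8455 to 8737) in the members, and the other labelled P6 cells 1296, a ratio of 6.63 (6.47 to 6.80). All 51 members with at least 20 UMIs were at least 2-fold higher there, where 5.44% of 11734 genes were, and none was 2-fold lower, where 7.59% were. Proliferative cells held 58.2% of the member UMIs of labelled cells and 17.4% of all UMIs. Highest were *Pif1* (30.5 and 1.88 CPM, ratio 16.2), *Hmmr* (86.0 and 5.40, ratio 15.9) and *Cenpe* (126 and 8.53, ratio 14.8). Lowest were *Cks1b* (401 and 113) and *Cenpw* (167 and 46.8), both at 3.56, and *Smc4* (314 and 85.2) at 3.69. *Kif20a*, a motor of the central spindle, had 18 UMIs in labelled cells and did not reach the limit.

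Next came the Primitive cluster at 3452 CPM (3335 to 3573) and the Capillary cluster at 2479 (2346 to 2617). Stalk cells had 1325, Arterial cells 1275, Tip cells 968, Cap-Venous cells 703, Cap-Arterial cells 681 and Venous cells 503. The Poisson intervals of Stalk (1265 to 1386) and Arterial (1123 to 1443) overlap, as do those of Cap-Venous (672 to 736) and Cap-Arterial (626 to 739), so these neighbours do not differ beyond counting error. After thinning, at least 5 members were found in 194 of 195 Proliferative, 93 of 155 Primitive, 28 of 91 Capillary and 45 of 205 Stalk cells. The shares in the other clusters ran from 2.70% in Venous cells (1 of 37) to 9.38% in Arterial cells (3 of 32). Proliferative cells thus made up 194 of 413 labelled P6 cells with at least 5 members (47.0%).

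**Figure D4:**
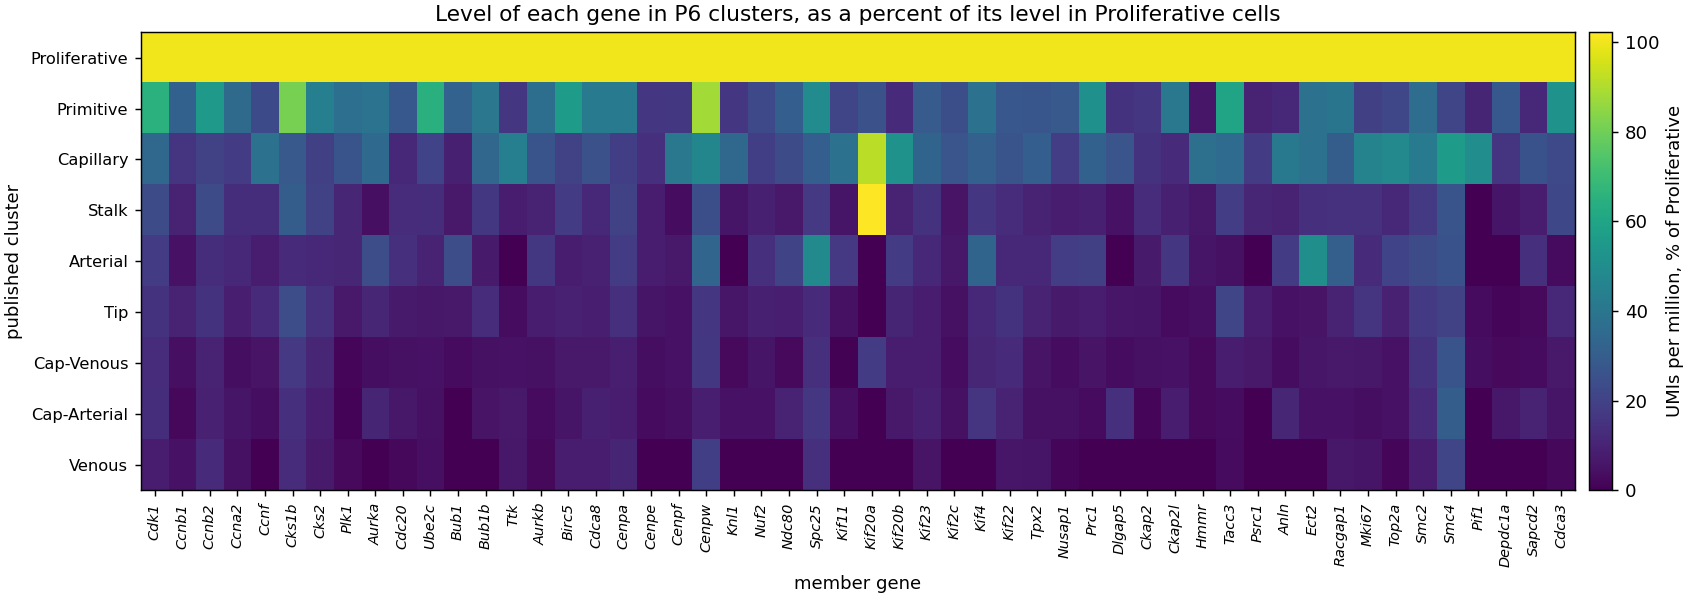
Level of each member (columns) in 9 published P6 clusters (rows), as a percent of its CPM in Proliferative cells (color). The Proliferative row is 100% by construction, the Primitive and Capillary rows are next for most members, and *Kif20a*, with 18 UMIs in all, is the single member with a higher value in Stalk cells.

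Against the labelled P6 cells outside Proliferative and Primitive, Primitive cells had a member ratio of 3.43 (3.29 to 3.57), with 42 of 50 members at least 2-fold higher where 3.16% of 11364 genes were, and none 2-fold lower, where 32% were. *Ube2c* was highest at 7.88 and *Smc4* lowest at 0.763. Capillary cells, compared with the clusters that then remained, had a ratio of 2.79 (2.62 to 2.96) with 40 of 47 members at least 2-fold higher, where 9.52% of 11205 genes were, and none 2-fold lower, where 7.30% were. Here *Kif11* was highest at 11.5 and *Cks1b* lowest at 1.41.

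Primitive and Capillary cells differed in which members made up their sums. As a share of the member UMIs of each cluster, 8 members were higher in Primitive cells by more than the counting interval, namely *Ube2c*, *Birc5*, *Cks1b*, *Ccnb2*, *Cdc20*, *Cks2*, *Cenpa* and *Cdk1*. Another 13 were higher in Capillary cells, namely *Hmmr*, *Pif1*, *Kif20b*, *Anln*, *Ttk*, *Smc4*, *Cenpf*, *Mki67*, *Top2a*, *Knl1*, *Kif11*, *Ccnf* and *Smc2*. The same count was not made over all genes, so it is not known whether 8 and 13 are many for these clusters. *Ube2c* took 9.19% of member UMIs in Primitive and 4.09% in Capillary cells, a ratio of 2.25 (1.67 to 3.07). *Top2a* took 3.54% and 10.9%, a ratio of 0.325 (0.252 to 0.419), and *Hmmr* 0.154% and 1.31%. The first set had a shorter exon length than the second, with medians of 2234 and 7461 bases. Exon length here is the union of all annotated exons of a gene, not the length of a single transcript. Across the 52 genes the log2 ratio of shares and log2 exon length had a Pearson r of -0.550 and a Spearman rho of -0.598, where all points share the same cells. Both clusters also differ in other ways, with medians of 5148 UMIs in Primitive and 3204 UMIs in Capillary cells, ribosomal protein shares of 25.2% and 14.9%, and 711 and 12027 CPM of the nuclear RNA *Malat1*. The part of these in the contrast was not tested.

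Within clusters of the same name, the ages differed least in Proliferative cells. The study drew its clusters from both ages together and named this one by *Mki67* among other genes. Close levels there are thus in part built in. The member sum of Proliferative cells was 8595 CPM at P6 and 7477 at P15 (14 cells), a ratio of 1.15 (1.07 to 1.24). That interval leaves out the spread between cells, so with 14 P15 cells no difference between the ages is read from it. In Primitive cells the member sum was 3452 and 202 (36 cells), a ratio of 17.1 (11.6 to 26.5). In Capillary cells it was 2479 and 340.5, a ratio of 7.28 (5.23 to 10.4). Stalk cells had a ratio of 6.23, Cap-Arterial cells 5.03, Tip cells 3.44 and Cap-Venous cells 2.74. Arterial (10.4, 11 cells at P15) and Venous (3.37, interval 0.595 to 134, 2 cells) rest on few cells. Among P15 labelled cells, 10 of 12 Proliferative cells had at least 5 members, and no cell of another cluster did. Of the 52 members, 22 had at least 20 UMIs in the labelled P15 cells, and all 22 were at least 2-fold higher in Proliferative cells. Of 8539 genes, 8.20% were 2-fold higher and 21.0% 2-fold lower, and the ratio of the member sums was 32.4 (28.9 to 36.4). Members such as *Ube2c* (42 UMIs in Proliferative and 3 in other cells) and *Top2a* (39 and 5) passed the limit through the Proliferative cells. The count of 22 thus describes the cluster and tests nothing, and the other members had too few UMIs. *Ccnb2* had 321 CPM in Proliferative and 0.985 in other P15 cells, where it had 2 UMIs (ratio 326, 83.7 to 2795), and *Smc4*, with the lowest ratio of 5.50, had 312 and 56.6.

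Proliferative P6 cells differed among themselves. A separate list of 40 S phase genes, such as *Rrm2* and *Clspn*, was summed in the Proliferative cells with and without a UMI of each member. Cells with a *Cdc20* UMI (137 cells, median 8247 UMIs) had 2653 CPM of S phase genes, and cells without one (61 cells, median 7156 UMIs) had 5458, a ratio of 0.486 (0.461 to 0.512). Ratios as low were found for *Ccnb2* (0.444), *Cenpa* (0.446) and *Psrc1* (0.399). *Ccnb1* (0.555), *Cenpf* (0.582), *Tpx2* (0.588), *Cenpe* (0.601) and *Plk1* (0.676) were also under 1. Cells with a *Top2a* UMI instead had 3811 against 1588 (2.40, 2.17 to 2.66), and cells with a *Cdk1* UMI 3668 against 1603 (2.29, 2.03 to 2.59). In all, the interval lay below 1 for 40 members, above 1 for 8 and included 1 for 4. *Kif20a*, *Cks1b* and *Cks2*, all below 1, had fewer than 20 Proliferative cells on one side. Of the 49 members with at least 20 on either side, 37 were below 1, 8 above 1 and 4 included 1, where 27.0% of 6915 genes with the same limit were below 1 and 40.8% above 1. After thinning, 37 of all 52 were below 1, 6 above 1 and 9 included 1. This thinned count has no limit on cells and no share over all genes to set it against. *Top2a* (1.47), *Ccnf* (1.31), *Cdk1* (1.23), *Aurkb* (1.21), *Mki67* (1.21) and *Smc2* (1.14) were then above 1, whereas *Smc4* moved from 1.51 to 1.02.

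Pairs of members were also compared in Proliferative P6 cells. After thinning, *Ccnb2* was found in 57.0% of the 107 Proliferative cells with *Cdc20* and in 26.1% of the 88 without it. *Cenpa* was found in 67.3% and 37.5% of the same cells. *Cdk1* was found in 77.7% of the 139 cells with *Top2a* and in 44.6% of the 56 without. *Cdc20* was found in 53.2% and 58.9% of these cells. *Smc2* was found in 51.7% of the 118 cells with its partner *Smc4* and in 51.9% of the 77 without. No intervals were computed for any of these shares, and pairs of other genes were not counted. The shares are therefore descriptions, and no difference is read from the pair of *Top2a* and *Cdc20*.

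Genes outside the list were compared in the same way. Across the 1560 labelled P6 cells, the 10 genes whose log-normalised value was most correlated with the mean of the members were *Pclaf*, *Hmgb2*, *Pimreg*, *Tuba1b*, *Pbk*, *Lockd*, *Spc24*, *H2afx*, *Tubb4b* and *Incenp*, with Pearson r from 0.741 (*Pclaf*) to 0.587 (*Incenp*). Of another 77 mitosis genes, 57 of the 73 with at least 20 UMIs were at least 2-fold higher at P6, with a median ratio of 5.08 and the lowest value for *Pttg1* (0.777), which encodes securin. In 7 of the 73 the value was lower at P6, and the ratio of the list sums was 1.99 (1.93 to 2.05), beside 5.65 for the members. Abundant genes weigh more in such sums, and the members were chosen with earlier results of these data known. Of the 40 S phase genes, 33 of 39 were at least 2-fold higher at P6, with a median of 4.67 and the highest value for *Rrm2* (17.4). The ratio of their sums was 2.83 (2.73 to 2.94). In Proliferative against other labelled P6 cells the medians were 8.56 for the members, 5.98 for the other mitosis genes and 2.83 for the S phase genes, beside 0.958 for all genes.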

How the data were processed

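Counts of UMIs per gene and barcode, as the authors deposited them for 1 library per age, were used as they stand. The submitters' processing notes name Seurat 3.0 and the mm10 build. The aligner, its version and the strand used in counting were not given in the sources used here. Cells were kept with 200 to 3500 genes, a mitochondrial share of up to 5%, and without any UMI of the exclusion genes *Neurod1* (neurons), *Cd63* (pericytes) and *Hbb-bt* (erythroid cells). No doublet caller was run. Cluster names came from the published labels. That copy was shortened for P15, so P15 cluster values rest on the first 438 cells, and Primordial-Proliferative and Primordial of the labels are called Proliferative and Primitive. Counts of gene IDs with the same symbol were summed, and 39 IDs at P6 and 40 at P15 had no symbol.

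Levels, in CPM, were compared by ratio with exact conditional binomial intervals, levels with exact Poisson intervals and shares with Clopper-Pearson intervals, all at 95%. As each age had 1 library, no p-value was computed. Calls of at least 2-fold needed at least 20 UMIs on both sides together. Thinning drew 3000 UMIs per cell with seed 1. All 52 members could be named, with full values for a fixed subset and for the highest and lowest of each role. The members, lists and subset were chosen with earlier results of these data known. The ratio intervals were tested on simulated Poisson counts, which hold no spread between cells. The thinning was checked on the P6 counts themselves. Promoter windows came from RefSeq (GRCm38.p6) and exon lengths from GENCODE M21. Python 3.11.15, numpy 2.4.6, scipy 1.17.1, pandas 2.3.3 and matplotlib 3.10.9 were used. Alternatives changed the cell filter, the count minimum, the denominator, the thinning, the limit on members found, the gene that split the cells and the promoter window.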

Additional observations from a re-analysis of the deposited data

Results flagged for a closer look

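Barcodes that the age comparison or the cluster comparison left out also held UMIs of the members, above the level of the same kind of barcode at P15. Those over 3500 genes were left out by age, though labelled cells reach 4252 genes, and those without a label were left out by cluster only. The 253 P6 barcodes with over 3500 genes that met the other criteria had 4456 CPM (4389 to 4524), where 148 such P15 barcodes had 677. At least 5 members were found after thinning in 144 of these 253 P6 barcodes (56.9%). The 98 P6 barcodes with a *Neurod1* UMI had 2753 (2644 to 2866), beside 3345 CPM of neuron markers, where 17 such P15 barcodes had 386. The 25 P6 cells that passed the criteria but carried no published label had 5655 (5166 to 6177) at a median mitochondrial share of 4.42%, where 1235 such P15 cells had 378. The P15 set without a label is large because the copy of the labels was shortened, so the last pair is not like for like.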

How the results depend on the processing

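The number of members at least 2-fold higher at P6 stayed between 48 and 51 over the alternatives, and that in Proliferative cells between 51 and 52. No ratio of a single member turned its direction. The ratio of the member sums of P6 to P15, 5.65, was 6.55 with every barcode, 6.47 with no upper limit on genes per cell, 4.27 with labelled cells only, 6.25 without mitochondrial and ribosomal protein genes in the denominator, 5.42 after thinning and 6.84 without *Smc4* and *Spc25*, a choice made after the data were seen. With labelled cells only, 26 of the 52 ratios of single members lay outside the counting interval of the reported ratio, and 25 were lower by over 1.5 times. After thinning, 5 moved by over 1.5 times, *Mki67* to 21.7, *Kif11* to 22.4, *Cenpw* to 18.8 and *Cenpe* to 17.4 upwards and *Anln* to 8.97 downwards. *Depdc1a* was 13 with every barcode and 11.8 with no upper limit on genes, and *Pif1* 9.50 with every barcode. With labelled cells that also passed the criteria, the Proliferative ratio was 6.97, the Primitive ratio 3.85 and the share of member UMIs in Proliferative cells 50.6%. After thinning, the Primitive ratio was 3.81 and that share 52.5%. Without Capillary cells, also chosen after the data were seen, the Primitive ratio was 3.88. The share of P6 cells with at least 5 members, 27.4%, was 38.6% for at least 3 members, 18.7% for at least 10, 21.3% after thinning to 2000 UMIs, 33.3% unthinned, 32.2% with every barcode and 32.4% with no upper limit on genes. The P15 share of 1.81% was 4.64% for at least 3 members. The S phase ratio of 0.486 was 0.676 when split on *Plk1*, 0.555 on *Ccnb1* and 0.403 for at least 2 *Cdc20* UMIs. TTTGAA was in 37.5% of member windows and 9.07% of all windows when the last 150 bases before the start were searched, which leaves out matches after the start. No paired analysis was possible because each age had 1 library.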
